A study of Mus musculus with 6 samples.

Results

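The subject here is the NF-κB family in a mouse co-culture of microglia and macrophages, described through 10 genes: the 5 subunit genes Nfkb1, Nfkb2, Rel, Rela and Relb, the IκB genes Nfkbia, Nfkbib, Nfkbie and Nfkbiz, and Tnfaip3. The genes were chosen by symbol, and all 10 were present among the 21399 genes listed for each library. Levels are in FPKM, fragment counts corrected for gene length and library depth. In each of the 6 libraries all 10 stood at 8.69 FPKM or more, so none was removed by the filter on low values. No member passed the test between the libraries labelled KO and the libraries labelled WT, where 0.028% of all genes tested passed. In none were the KO-labelled values separate from the WT-labelled values, beside 24.9% of all genes tested.

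NF-κB is a set of dimers of Rel-family proteins that wait in the cytoplasm, bound by IκB proteins. In the classical route, an IκB kinase marks IκB for destruction and dimers of p65 with p50 or of c-Rel with p50 enter the nucleus. In the alternative route, the p100 precursor is cut to p52, which acts with RelB. NF-κB is a main driver of inflammatory genes in macrophages and microglia and of survival in B cells, and it raises several of its own inhibitors as feedback.

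RNA sequencing was done on 3 KO-labelled and 3 WT-labelled libraries. In all of them, microglia carrying the CD45.2 form of the leukocyte protein CD45, from KO or WT mice, had gone through oxygen and glucose deprivation, a culture model of ischaemia. Oxygen was then restored, and peritoneal macrophages from mice with the CD45.1 form were added. The sorted population is described as microglia but with the CD45.1 mark of the macrophages, and each library's label names both cell types. Which gene was deleted, the strain, age and sex of the mice and the length of the culture are not in the labels. Nor is it stated that replicates were separate cultures or animals, so p-values here reflect library-to-library spread that could be technical. In the title, PPARα is named, the lipid-sensing receptor encoded by Ppara.

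Ppara held 10 to 23 reads in the KO-labelled libraries and 1 to 11 in the WT-labelled libraries, so its level did not check the labels. All 15 macrophage markers had higher mean levels in the KO-labelled libraries, where their summed FPKM was 5108 to 11698, against 1364 to 4025 in the WT-labelled libraries. The 10 B cell markers summed to 4446 to 4839 FPKM in the KO-labelled libraries and 5052 to 5704 FPKM in the WT-labelled libraries, and the 10 T cell markers to 164 to 191 FPKM in the KO-labelled and 209 to 248 FPKM in the WT-labelled libraries. Of the microglia markers, 9 of 10 were listed, P2ry12 reached at most 1.09 FPKM in any library and Sall1 was at 0 in 3 libraries. The libraries thus held abundant B cell RNA, which the labels do not mention, and in such bulk samples fewer cells of a type and less RNA per cell cannot be told apart. As background, macrophages, B cells and T cells all use NF-κB.

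Several members are known targets of the factors they encode or hold back, so the DNA before their starts is shown for 3 of them. RefSeq windows of GRCm38.p6, the assembly also called mm10, were at hand for 7 members. The 250 bases before each start were searched on both strands for the 10-base κB consensus, with overlapping matches kept and no other motif searched. Matches are in capitals below, written 5′ to 3′ in the direction of the gene. Nfkbia lies on the minus strand (window chr12:55492648-55492897), Rel on the minus strand (chr11:23770970-23771219) and Nfkbie on the plus strand (chr17:45555450-45555699).
Nfkbia: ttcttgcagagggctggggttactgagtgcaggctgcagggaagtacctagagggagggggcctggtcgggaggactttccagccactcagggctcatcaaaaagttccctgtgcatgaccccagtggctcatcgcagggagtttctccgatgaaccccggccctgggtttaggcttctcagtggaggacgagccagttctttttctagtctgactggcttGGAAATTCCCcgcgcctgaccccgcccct
Rel: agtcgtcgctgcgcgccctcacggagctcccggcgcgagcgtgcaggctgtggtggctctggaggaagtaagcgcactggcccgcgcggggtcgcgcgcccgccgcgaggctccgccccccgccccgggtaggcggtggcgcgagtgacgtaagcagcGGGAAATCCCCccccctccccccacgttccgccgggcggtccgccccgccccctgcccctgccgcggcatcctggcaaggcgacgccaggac
Nfkbie: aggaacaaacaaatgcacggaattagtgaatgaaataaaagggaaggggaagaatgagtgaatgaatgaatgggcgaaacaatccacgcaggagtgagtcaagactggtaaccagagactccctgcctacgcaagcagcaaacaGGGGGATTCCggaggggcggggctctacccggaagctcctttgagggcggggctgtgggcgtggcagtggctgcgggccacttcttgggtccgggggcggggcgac
The Nfkbia match reads GGGAATTTCC on the strand opposite to the gene and lies 29 to 20 bases before the start. The Rel letters hold 3 overlapping matches between 92 and 82 bases before the start, 1 of them GGGAAATCCC in the direction of the gene. The Nfkbie match, GGGGGATTCC, lies 106 to 97 bases before the start. Nfkb2 and Tnfaip3 also held matches, GGGAATTCCC at 39 to 30 bases before the first Nfkb2 start and GGGGATTTCC, on the opposite strand, at 12 to 3 bases before the first Tnfaip3 start. In all, 5 of the 7 members with windows held a match in at least 1 window, while 8.23% of 27025 genes did. Rela and Nfkbib had no match in their windows. A match describes letters and does not show that a factor bound there.

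The 10 genes are spread over 8 chromosomes, in GENCODE M21 coordinates of mm10. Rela (chr19:5637483-5648130, plus strand) and Nfkb2 (chr19:46304320-46312385, plus strand) share chromosome 19, and Relb (chr7:19606217-19629438, minus strand) and Nfkbib (chr7:28758251-28767512, minus strand) share chromosome 7. Nfkb1 lies at chr3:135584655-135691547, Rel at chr11:23736847-23770970, Nfkbia at chr12:55489410-55492647, Nfkbiz at chr16:55811375-55838899 and Tnfaip3 at chr10:19000910-19015657, all on the minus strand. Nfkbie lies at chr17:45555703-45563169 on the plus strand. Apart from Nfkb1, Nfkb2 and Nfkbib, no member overlaps another annotated gene, and the overlap in Nfkb1 is a transcript to be experimentally checked, on the same strand.

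Levels were compared first, in FPKM as deposited. The gene lengths behind the FPKM are not given, and the order across genes depends on them. In reads, Nfkb2 (4228 to 5909 per library) and Rela (5595 to 6862) overlapped, though in FPKM they did not. Nfkb1, which encodes p105, the precursor of p50, was the highest member, at 94.3 to 121 FPKM over the 6 libraries and rank 463 of all genes by mean level. Nfkbia, which encodes IκBα, the fast feedback inhibitor, followed at 73.5 to 97.1 FPKM. Rela, which encodes the activating subunit p65, stood at 45.7 to 55.0 FPKM, and Nfkbie, which encodes IκBε, at 42.4 to 52.1 FPKM. Rel, which encodes c-Rel, the subunit most used in lymphocytes, stood at 22.0 to 37.3 FPKM. Tnfaip3 and Nfkbib came next, and Nfkb2, Nfkbiz and Relb formed the low end at 8.69 to 14.1 FPKM.

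The ranges of neighbours in this order did not overlap at 3 places, between Nfkbia and Rela, between Nfkbie and Rel, and between Nfkbib and Nfkb2. At the other 6 places neighbours overlapped. Within single libraries, Rela was still above Nfkbie and Rel above Tnfaip3 in 6 of 6. Nfkb1 was above Nfkbia and Nfkb2 above Nfkbiz in 5 of 6. Tnfaip3 was above Nfkbib in 4 of 6 libraries and Nfkbiz above Relb in 4 of 6, so these last pairs have no order beyond their spread. By overlap of their FPKM ranges, the 10 members thus formed 4 tiers, which rest on the gene lengths used. Each member rested on 1289 to 18740 reads per library, which were recovered from the FPKM steps, so counting error is small beside the spread between libraries.

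**Figure D1:**
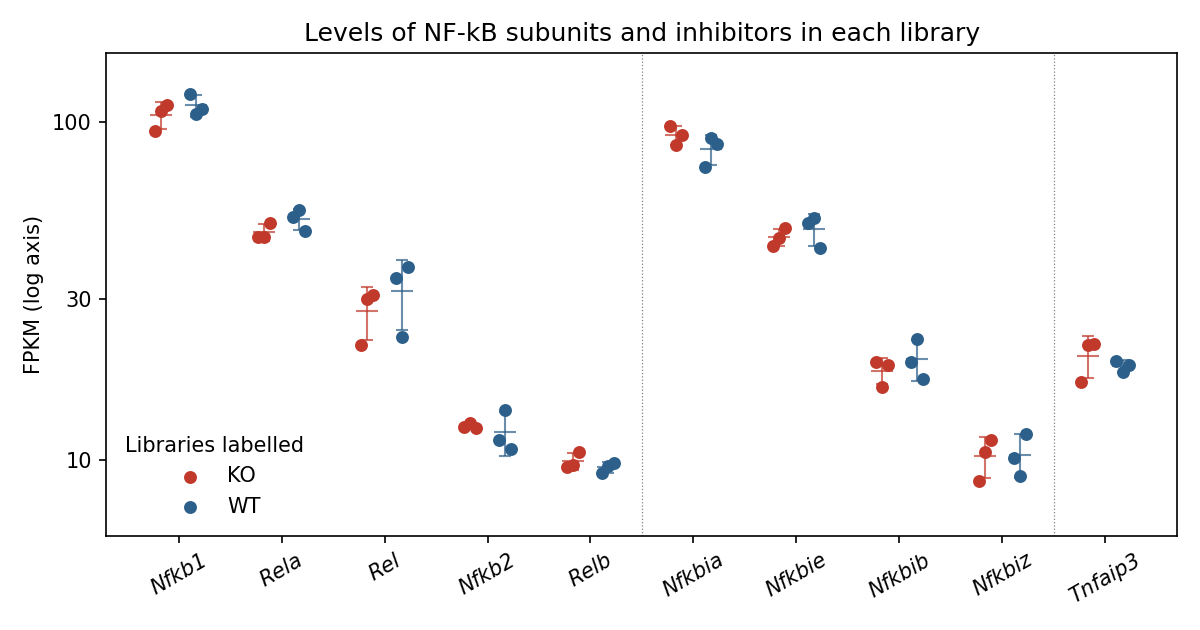
FPKM of the 10 genes on a log axis, with each library as a point, the mean as a dash and the SD as bars (n = 3), KO-labelled in red at the left and WT-labelled in blue at the right of each gene. Dotted lines divide subunits, IκB genes and Tnfaip3. The colours overlap for every gene, from Nfkb1 at 94.3 to 121 FPKM to Relb at 9.16 to 10.6 FPKM.

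The comparison of KO-labelled with WT-labelled libraries asks whether NF-κB components differed with the label. The libraries held B cell and macrophage RNA, so neither a difference nor its absence can be assigned to the microglia. None of the 10 members passed an adjusted p of 0.05 in either direction by limma, a linear model with a shared estimate of spread, on log2(FPKM + 1). None had an unadjusted p under 0.05, where 17.1% of the 10732 genes tested did, and voom, limma's method for reads, called none either. Over all genes tested, 0.028% were called in either direction, and the count of 0 among 10 genes lies near that share. The KO-labelled values lay wholly above or wholly below the WT-labelled values for 0 of 10 members, beside 24.9% of all genes tested. Adjusted p-values of the members ran from 0.51 for Rela to 0.95 for Nfkbiz.

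The classical subunits had slightly lower means in the KO-labelled libraries, within the spread. Nfkb1 stood at 94.3, 108 and 112 FPKM in the KO-labelled libraries and at 121, 106 and 109 FPKM in the WT-labelled libraries. Its groups overlapped, with a log2 difference of -0.10 (SE 0.10, limma adjusted p = 0.64). Rela stood at 45.9, 45.7 and 50.3 FPKM in the KO-labelled libraries and at 52.4, 55.0 and 47.7 FPKM in the WT-labelled libraries. Only KO replicate 3 and WT replicate 3 overlapped here, and the log2 difference was -0.13 (SE 0.09, limma adjusted p = 0.51). Rel stood at 22.0, 30.1 and 30.9 FPKM in the KO-labelled libraries and at 34.5, 23.2 and 37.3 FPKM in the WT-labelled libraries. Rel had the widest spread of the 10, with KO replicate 1 and WT replicate 2 both low, and its log2 difference of -0.18 had an SE of 0.20 (limma adjusted p = 0.68).

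The subunits of the alternative route had slightly higher means in the KO-labelled libraries, again within the spread. Nfkb2, which encodes p100, stood at 12.6, 12.9 and 12.5 FPKM in the KO-labelled libraries and at 11.5, 14.1 and 10.8 FPKM in the WT-labelled libraries. The KO-labelled values lay between WT replicates 1 and 2, and the log2 difference was 0.07 (SE 0.11, limma adjusted p = 0.77). Nfkb2 shares its span with Psd, a protein-coding gene on the other strand, and since the strand setting of the counting is not given, their reads cannot be told apart. Relb stood at 9.57, 9.71 and 10.6 FPKM in the KO-labelled libraries and at 9.16, 9.63 and 9.84 FPKM in the WT-labelled libraries. Its 6 values were the tightest of the 10 members and overlapped, with a log2 difference of 0.06 (SE 0.08, limma adjusted p = 0.75). After median-of-ratios scaling the Relb values no longer overlapped, which held for 21.7% of all genes tested. Its call was unchanged (limma adjusted p = 0.52, log2 difference 0.12).

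Among the inhibitors, Nfkbia had the highest mean in the KO-labelled libraries relative to the WT-labelled ones. It stood at 97.1, 85.6 and 91.7 FPKM in the KO-labelled libraries and at 73.5, 89.9 and 86.0 FPKM in the WT-labelled libraries. WT replicate 1 was low and the other values were interleaved, and the log2 difference was 0.14 (SE 0.10, limma adjusted p = 0.52). Nfkbie stood at 43.1, 45.5 and 48.5 FPKM in the KO-labelled libraries and at 50.2, 52.1 and 42.4 FPKM in the WT-labelled libraries. WT replicate 3 was the lowest and WT replicate 2 the highest of its 6 values, and the log2 difference was -0.07 (SE 0.10, limma adjusted p = 0.74). Nfkbib, which encodes IκBβ, a slower inhibitor, stood at 19.5, 16.5 and 19.1 FPKM in the KO-labelled libraries and at 19.5, 22.9 and 17.4 FPKM in the WT-labelled libraries. Its groups overlapped (log2 difference -0.11, SE 0.12, limma adjusted p = 0.67), and its span overlaps the protein-coding genes Ccer2 and Sirt2 on the other strand.

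Nfkbiz encodes IκBζ, a nuclear protein that acts as a cofactor for some NF-κB targets. It stood at 8.69, 10.6 and 11.5 FPKM in the KO-labelled libraries and at 10.2, 8.99 and 12 FPKM in the WT-labelled libraries, and its log2 difference of -0.02 (SE 0.14, limma adjusted p = 0.95) was the nearest to 0 of the 10. Tnfaip3 encodes A20, an enzyme that edits ubiquitin chains and ends NF-κB signalling. It stood at 17.0, 22.0 and 22.1 FPKM in the KO-labelled libraries and at 19.7, 18.2 and 19.2 FPKM in the WT-labelled libraries. KO replicate 1 was below and KO replicates 2 and 3 above every WT-labelled value (log2 difference 0.08, SE 0.11, limma adjusted p = 0.73).

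A p that misses the threshold does not show equal levels, so the intervals matter. The 95% intervals of the 10 differences lay between -0.64, the lower bound for Rel, and 0.38, the upper bound for Nfkbia, and none reached a doubling or halving, which is 1 on this scale. The median difference was -0.05 over the members and -0.06 over all genes tested, and the median absolute difference was 0.09 over the members and 0.13 over all genes tested. Differences larger in size than that of any member were found in 35.8% of genes tested. The sign of the members' median changed to 0.02 with median-of-ratios scaling and with voom, and the sign of Nfkbiz changed under both as well, to 0.05.

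**Figure D2:**
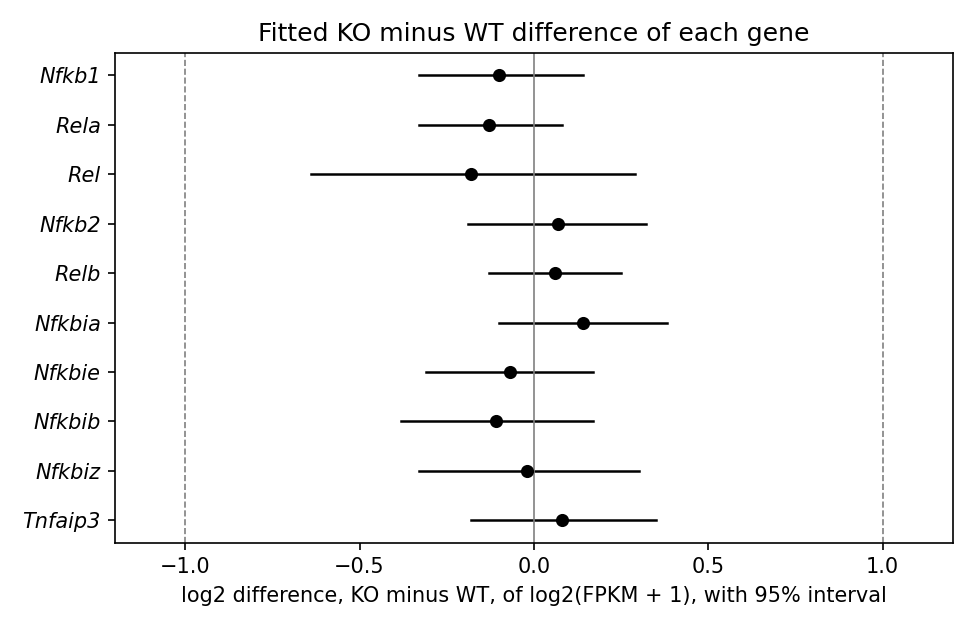
Fitted log2 difference, KO-labelled minus WT-labelled, for each of the 10 genes on the log2(FPKM + 1) scale (points) with 95% intervals (lines), with dashed lines at a doubling and a halving. Every interval crosses 0 and stays between -0.64 and 0.38.

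**Figure D3:**
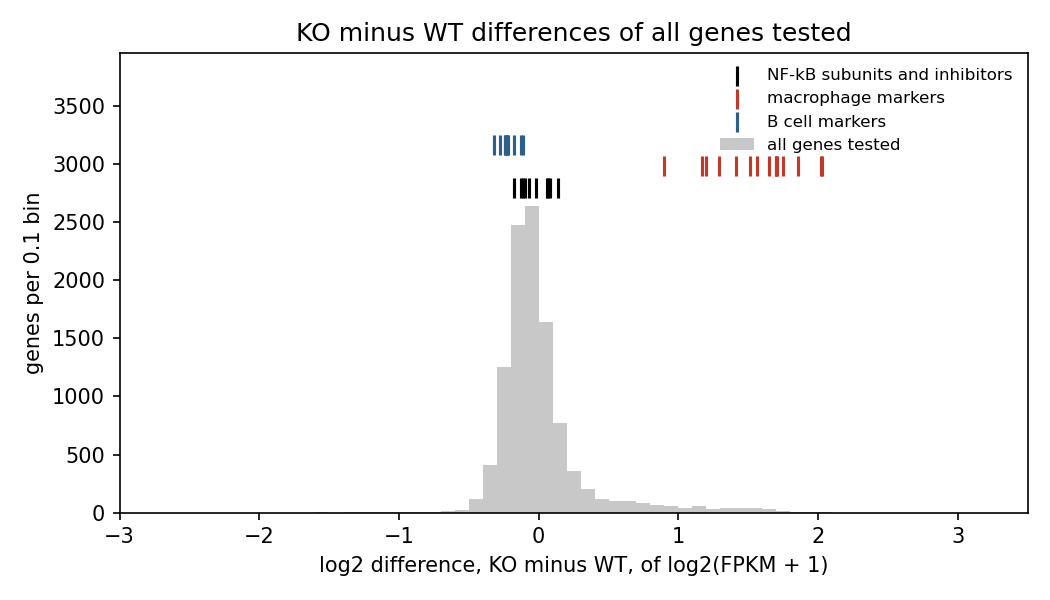
Histogram of the log2 difference, KO-labelled minus WT-labelled, over the 10732 genes tested, in bins of 0.1, with tick marks above for the 10 NF-κB genes, 15 macrophage markers and 10 B cell markers. The NF-κB genes sit at the centre of the histogram, the macrophage markers to its right with a median of 1.65, and the B cell markers slightly to its left with a median of -0.23.

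Shares of the subunits overlapped between the groups for Nfkb1, Rela, Rel and Nfkb2, and varied within them. The sizes of these shares rest on the gene lengths behind the FPKM, which are not given. Of the summed FPKM of the 5 subunits, Nfkb1 made up 51.8% ± 0.553 in the KO-labelled libraries and 51.6% ± 1.23 in the WT-labelled libraries (SD, n = 3), and Rela made up 23.4% ± 1.39 in the KO-labelled and 23.9% ± 2.28 in the WT-labelled libraries. Rel made up 11.9%, 14.6% and 14.3% in the KO-labelled libraries and 15.1%, 11.2% and 17.4% in the WT-labelled libraries, the widest relative range of these shares. Nfkb2 made up 6.82%, 6.27% and 5.77% in the KO-labelled libraries and 5.01%, 6.80% and 5.01% in the WT-labelled libraries. Relb made up 5.19%, 4.71% and 4.89% in the KO-labelled libraries and 4.00%, 4.63% and 4.58% in the WT-labelled libraries, shares that did not overlap. The ratio of Nfkbia to Rela FPKM was 2.11, 1.87 and 1.82 in the KO-labelled libraries and 1.40, 1.63 and 1.80 in the WT-labelled libraries, also without overlap, though KO replicate 3 and WT replicate 3 were adjacent. These were 2 of the 16 shares, sums and ratios examined, and they were not tested. The ratio of the classical IκB genes, Nfkbia, Nfkbib and Nfkbie, to the 5 subunits overlapped, at 0.772 ± 0.0818 in the KO-labelled and 0.699 ± 0.0856 in the WT-labelled libraries (SD, n = 3).

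Differences among libraries of the same group were as large as those between groups, and they followed a pattern across members. Rel, Tnfaip3, Nfkbiz and Nfkb1 each had their lowest value in KO replicate 1 and their second lowest in WT replicate 2. For Rel, KO replicate 1 was 0.30 below its group mean and WT replicate 2 was 0.41 below its own, on the log2 scale. In WT replicate 2 the other members were above their group mean instead, by 0.21 for Nfkb2, 0.20 for Nfkbib and 0.12 for Nfkbia and Nfkbie, and by less for Rela and Relb. In KO replicate 1 those members lay on both sides of their group mean, from -0.08 for Nfkbie to 0.09 for Nfkbia. Rel, Tnfaip3, Nfkbiz and Nfkb1 had the lowest GC content of the 10 in their protein-coding transcripts, 42.5% for Rel to 52.0% for Nfkb1, and the other 6 had 52.9% to 61.1%.

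Of the genes tested, 9919 had a known GC content, and among those of lowest GC the same libraries stood out. In the fifth of genes with the lowest GC, the median deviation from the group mean was -0.08 in KO replicate 1 and -0.09 in WT replicate 2. In the fifth with the highest GC it was 0.11 in WT replicate 2, while KO replicate 1, at 0.02, did not stand out. KO replicate 1 and WT replicate 2 also had the highest FPKM totals, 439226 in KO replicate 1 and 439451 in WT replicate 2, where the other libraries had 391346 to 414931. They further had the highest macrophage marker sum of their groups, 11698 FPKM in KO replicate 1 and 4025 FPKM in WT replicate 2. The part of GC content, totals or macrophage RNA in the low Rel, Tnfaip3, Nfkbiz and Nfkb1 values was not tested. Without these 2 libraries, a setting chosen after the data were seen, 0 of 10 members were called, beside 382 of the 10732 genes tested. There the log2 difference of Rel was -0.23 (limma adjusted p = 0.20).

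**Figure D4:**
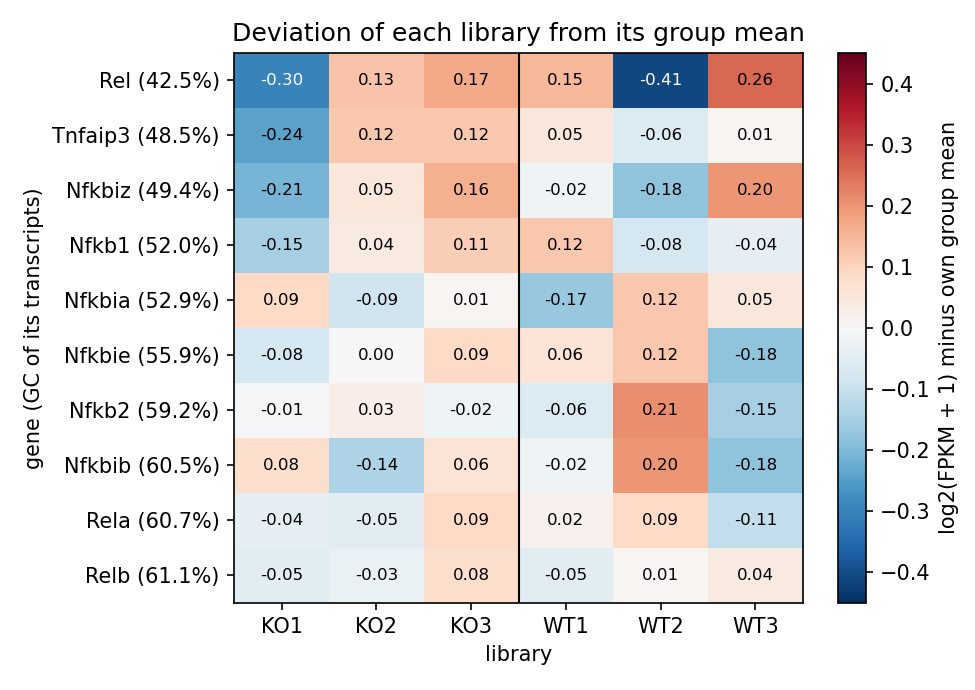
Deviation of each library from the mean of its own group in log2(FPKM + 1), with genes ordered from the lowest GC content at the top to the highest at the bottom and KO-labelled libraries left of WT-labelled ones. Blue cells are below the group mean, and they gather in KO replicate 1 and WT replicate 2 for the top 4 genes.

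The 3 genes outside the family whose profile over the 6 libraries was closest to that of Rela, the member with the smallest p, were Ncdn, Rae1 and Mtmr14. Their Euclidean distances from the centred Rela profile were 0.048, 0.057 and 0.059 on the log2 scale, beside a median of 0.38 over all genes tested. Ncdn stood at 14.1, 14.5 and 15.7 FPKM in the KO-labelled libraries and at 16.4, 17.3 and 15.2 FPKM in the WT-labelled libraries, with overlap (limma adjusted p = 0.47).

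Around the members, 7 lists of pathway genes held 109 symbols, of which 98 were tested and 0 called by limma or by voom. At an unadjusted limma p under 0.05, 21 of the 98 were higher and 11 lower in the KO-labelled libraries. Over all genes tested, 17.1% were under this threshold in either direction. The groups did not overlap for 21 higher and 15 lower genes, beside 9.75% higher and 15.2% lower over all genes tested. The median difference over the 98 genes was -0.01. The receptor and target lists held most of the genes separated upward, and the adaptor list held more of those separated downward than any other list.

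Among receptors that feed NF-κB, 7 of 11 tested were separated upward, 1 downward and 0 passed the adjusted threshold, with a median difference of 0.60. The shares over all genes tested were 9.75% upward and 15.2% downward. Cd14, the co-receptor for bacterial lipopolysaccharide, stood at 482, 348 and 260 FPKM in the KO-labelled libraries and at 87.3, 122 and 58.4 FPKM in the WT-labelled libraries (limma adjusted p = 0.077). Tlr2, a receptor for bacterial lipoproteins, stood at 77.4, 72.1 and 51.7 FPKM in the KO-labelled libraries and at 24.0, 37.2 and 16.7 FPKM in the WT-labelled libraries (limma adjusted p = 0.11). Every KO-labelled value exceeded every WT-labelled value for both genes. Cd14 is also on the macrophage marker list, whose median difference was 1.65, and the part of macrophage RNA in these values was not tested.

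Among ligands, 0 of 7 passed and 1, Il1b, was separated. Il1b, a cytokine that both activates and is driven by NF-κB, stood at 187, 199 and 153 FPKM in the KO-labelled libraries and at 53.0, 89.4 and 37.9 FPKM in the WT-labelled libraries (limma adjusted p = 0.10). Il1a stood at 19.2, 10.6 and 6.44 FPKM in the KO-labelled libraries and at 5.19, 6.54 and 2.26 FPKM in the WT-labelled libraries, with overlap (limma adjusted p = 0.23). Of the target genes, 7 of 21 were separated upward and 2 downward, 0 passed, and the median was 0.26, where 9.75% of all genes tested were separated upward and 15.2% downward. All 15 macrophage markers were higher in mean in the KO-labelled libraries too, with a median of 1.65, and their part in the target genes, Il1b and Sod2 was not tested. Sod2, a mitochondrial superoxide dismutase, stood at 66.2, 47.7 and 34.2 FPKM in the KO-labelled libraries and at 22.4, 27.2 and 15.3 FPKM in the WT-labelled libraries (limma adjusted p = 0.12). Bcl2a1a, a survival gene with near-identical copies that can share its reads, averaged 8.05 ± 1.63 FPKM in the KO-labelled and 4.53 ± 0.491 FPKM in the WT-labelled libraries (SD, n = 3, limma adjusted p = 0.11). Bcl2a1b averaged 61.3 ± 11.5 FPKM in the KO-labelled and 46.9 ± 8.39 FPKM in the WT-labelled libraries, with overlap (limma adjusted p = 0.31). Bcl2a1d averaged 26.5 ± 2.01 FPKM in the KO-labelled and 25.3 ± 2.78 FPKM in the WT-labelled libraries, also with overlap (limma adjusted p = 0.76).

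The adaptor and ubiquitin ligase list went mostly the other way, with 1 of 21 separated upward, 7 downward and 0 called, and a median difference of -0.12. Beside these counts, 9.75% of all genes tested were separated upward and 15.2% downward. All 10 B cell markers (median -0.23, 5 separated downward) and all 10 T cell markers (median -0.35, 8 separated downward) were also lower in mean in the KO-labelled libraries, and their part in the adaptor values was not tested. Card9, a scaffold of myeloid cells that joins receptors to the Bcl10 and Malt1 complex, stood at 9.67, 8.89 and 8.67 FPKM in the KO-labelled libraries and at 2.81, 5.35 and 2.38 FPKM in the WT-labelled libraries, a log2 difference of 1.21 (SE 0.22, limma adjusted p = 0.11). The macrophage markers moved with Card9, and their part in its value was not tested.

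The kinases were near the members in median difference. Of 16 IKK and upstream kinase genes, 2 were separated upward, 3 downward and 0 called, with a median of -0.03. These counts of separated genes lie near the shares over all genes tested, 9.75% upward and 15.2% downward. Ikbke, a noncanonical IκB kinase, stood at 22.5, 19.0 and 20.0 FPKM in the KO-labelled libraries and at 13.8, 17.2 and 14.6 FPKM in the WT-labelled libraries (limma adjusted p = 0.14). Ripk2, the kinase below the NOD receptors, averaged 11.2 ± 0.282 FPKM in the KO-labelled and 9.08 ± 0.906 FPKM in the WT-labelled libraries (SD, n = 3, limma adjusted p = 0.20). Of 15 feedback inhibitors outside the members, 3 were separated upward, 0 downward and 0 called, with a median of -0.01. Irak3, a brake on Toll-like receptor signalling, averaged 22.1 ± 2.03 FPKM in the KO-labelled and 18.3 ± 1.31 FPKM in the WT-labelled libraries (SD, n = 3, limma adjusted p = 0.24), and N4bp1 averaged 6.88 ± 0.269 FPKM in the KO-labelled and 5.75 ± 0.595 FPKM in the WT-labelled libraries (limma adjusted p = 0.29).

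Of 7 tested genes for other IκB proteins and nuclear regulators, 0 were separated upward, 2 downward and 0 called, with a median of -0.21. Among all genes tested, 9.75% were separated upward and 15.2% downward. Nkiras1, which encodes a Ras-like protein that binds IκB, averaged 2.50 ± 0.254 FPKM in the KO-labelled and 3.36 ± 0.514 FPKM in the WT-labelled libraries (SD, n = 3, limma adjusted p = 0.26). Nkrf, which encodes a repressor of NF-κB targets, averaged 2.24 ± 0.315 FPKM in the KO-labelled and 2.99 ± 0.411 FPKM in the WT-labelled libraries (SD, n = 3, limma adjusted p = 0.27).

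**Figure D5:**
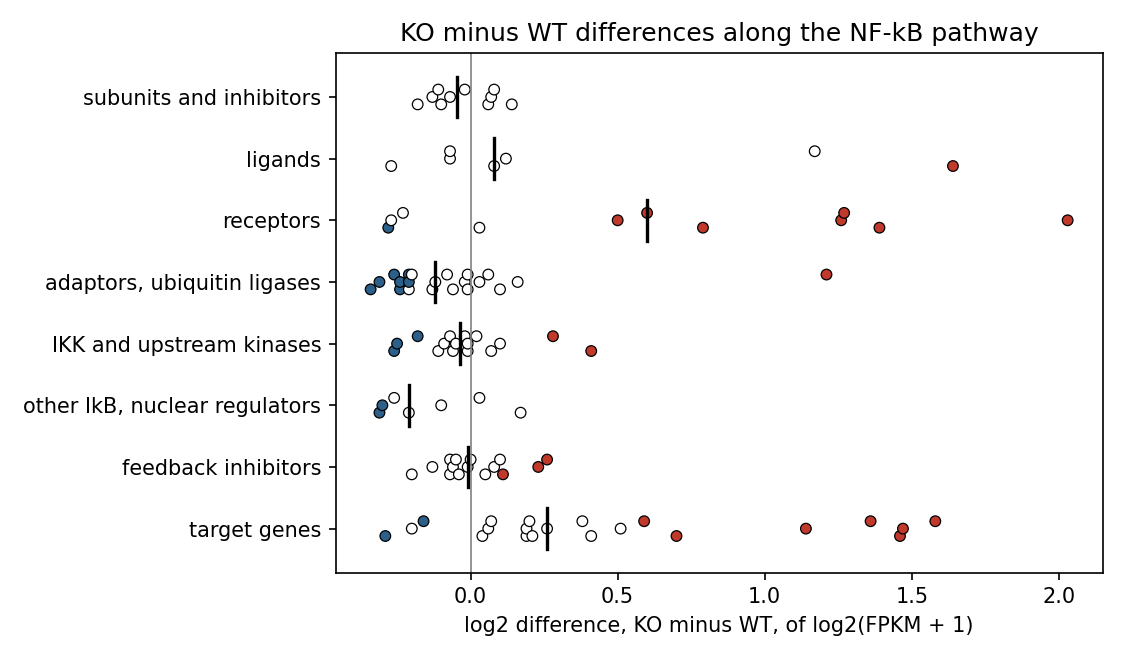
Log2 difference, KO-labelled minus WT-labelled, on the log2(FPKM + 1) scale for each tested gene (points), by pathway list from ligands and receptors down to target genes, with the 10 members at the top and the median of each list as a vertical bar. Red points have every KO-labelled value above every WT-labelled value, blue points the reverse, and open points overlap. The receptors reach 2.03, and the members stay between -0.18 and 0.14 with only open points.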

How the data were processed

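The deposited values are FPKM, 1 table of 21399 gene symbols per library, made by the authors on mm10 per the submitters' processing notes. Per the labels' protocols, TRIzol was used for total RNA and the VAHTS Universal V6 kit for library preparation. The aligner, the counter, the annotation and any use of strand were not given in the sources used here. Groups came from the sample titles. The 10 genes, 7 pathway lists, 4 marker lists and tests were chosen with earlier results of these data known.

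Tests covered the 10732 genes averaging 1 FPKM or more, on log2(FPKM + 1) as deposited, by limma 3.58.1 (R 4.3.3, eBayes with trend, two-sided), with Benjamini-Hochberg adjustment over all of them at 0.05. The added 1 understates changes of low genes. Steps in the low FPKM values gave back whole reads for 99.99% of genes within 0.002 reads, 33506540 to 37137934 per library, and a factor shared by all 6 counts of a gene stays hidden. Voom used these reads with trimmed-mean scaling. Named pathway genes were the 2 with the smallest p of each list, with Bcl2a1b and Bcl2a1d given beside Bcl2a1a. An item that this rule names is not reported here. Positions, overlaps and transcript GC came from GENCODE M21 (GRCm38). The limma fit and the read recovery were run on simulated data with noise drawn separately for each gene. Shifts shared by many genes of a library were not simulated. Python 3.11.15, pandas 2.3.3, numpy 2.4.6 and matplotlib 3.10.9 served for tables and figures.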

Additional observations from a re-analysis of the deposited data

How the results depend on the processing

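Under the 17 alternatives to the fit, and at a threshold of 0.1, 0 of 10 members were called. Of 170 member differences recomputed, 163 kept their sign, 0 passed the threshold and the lowest adjusted p was 0.19, for Rel without WT replicate 2. The others changed sign: Nfkbiz to 0.05 with median-of-ratios scaling and voom, 0.01 with array weights and 0.08 at most on leaving out 1 library (range -0.11 to 0.08), Nfkb2 in a range of -0.01 to 0.17, and Nfkbie to 0.03 without KO replicate 1 and WT replicate 2 together, a setting chosen after the data were seen. Rel ranged from -0.38 without WT replicate 2 to -0.02 without KO replicate 1.

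Members whose groups did not overlap numbered 1 with median-of-ratios scaling and with voom (Relb in each, beside 21.7% of genes), 3 without those 2 libraries (55.4% of genes), and 0 to 3 on leaving out 1 library (29.1% to 50.2% of genes). Genes called over the whole table, 3 by the fit reported, numbered 6 with a pseudocount of 5, 0 with no filter, 5 with voom, 612 with array weights, 50 at a threshold of 0.1, 382 without both libraries, and 0 to 538 on leaving out 1, the highest without WT replicate 2. Array weights called 7 receptors, 7 target genes, 2 adaptors, 1 kinase and 1 ligand, a threshold of 0.1 called 1 receptor, and leaving out both libraries 5 receptors, 4 target genes, 1 adaptor, 1 kinase and 1 ligand. Leaving out 1 library gave 0 to 6 receptors, 0 to 6 target genes and 0 to 1 adaptors, kinases and ligands. The cause was not tested.

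The replicate block called 11 genes, 1 receptor and 0 members. Deviations from the group means in libraries sharing a number correlated at r = -0.21, -0.38 and 0.27. Deviations from means of 3 constrain each other, so these values cannot decide whether the numbers pair the samples. Each member had at least 1289 reads in every library, and the spread between the 3 libraries of a group limits the comparison more than counting error does.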
